A study of Mus musculus with 12 samples.

Results

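4T1 is a mouse mammary carcinoma cell line, and its response to decitabine was measured by RNA sequencing of 6 libraries, out of 12 in the whole series. The members are all libraries of this line: 3 labelled 4T1 control and 3 labelled 4T1 DAC. The treated cells received 1 µM decitabine for 48 h in culture plates, and dead cells were taken out with microbeads so that RNA came from live cells. The labels give no vehicle for the controls and no genetic change in either group. Nothing in them says that the 3 replicates were separate cultures, and the spread between libraries, on which every p-value rests, may thus be technical. The series names 2 sequencing instruments, but the labels do not tie libraries to them, so an effect of the instrument cannot be told apart from the spread or from the groups. The remaining 6 libraries come from a melanoma line at another dose and were not used here. 

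Decitabine (5-aza-2'-deoxycytidine) is a cytidine analogue that cells phosphorylate and build into DNA. There it traps the methyltransferase Dnmt1, which copies methylation from the old to the new DNA strand, so that methylation is lost as cells divide. Genes that are held silent by promoter methylation, above all genes of germ cells and endogenous retroviruses, are known to be transcribed after such treatment, and RNA from retroviral copies can set off an interferon response.

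Of the 46517 genes in the table, 15523 passed the expression filter and were tested. With decitabine, 6087 genes rose, which is 39.2% of those tested, and 5601 fell, which is 36.1%, so that 75.3% changed in either direction at an adjusted p under 0.05 (edgeR's quasi-likelihood test, Benjamini-Hochberg adjustment over all tested genes). All adjusted p below come from that fit. Increases were larger than decreases: the median log2 fold change was 1.13 among genes that rose and -0.52 among genes that fell. At least 2-fold, 3258 genes rose (21.0%) and 864 fell (5.57%), and at least 16-fold, 1024 rose (6.6%) and 12 fell. Of the genes that rose, 285 had 0 counts in all 3 control libraries. The libraries of the groups did not overlap for 12143 genes, or 78.2%. Counts of list members below are read against these shares.

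The response varied with the level of a gene in the control cells. Of 1302 genes with a control mean under 0.1 CPM (counts scaled to library size and between libraries), 1300 rose, which the filter brings about, since a gene that low in the controls passed only through the treated libraries. At 200 CPM or more, 15.2% of 877 genes rose and 60.4% fell. The filter asked for 0.187 CPM in 3 of the 6 libraries, with Slc1a3 just inside at 0.192 CPM and a clone-named locus just outside at 0.187 CPM.

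**Figure D1:**
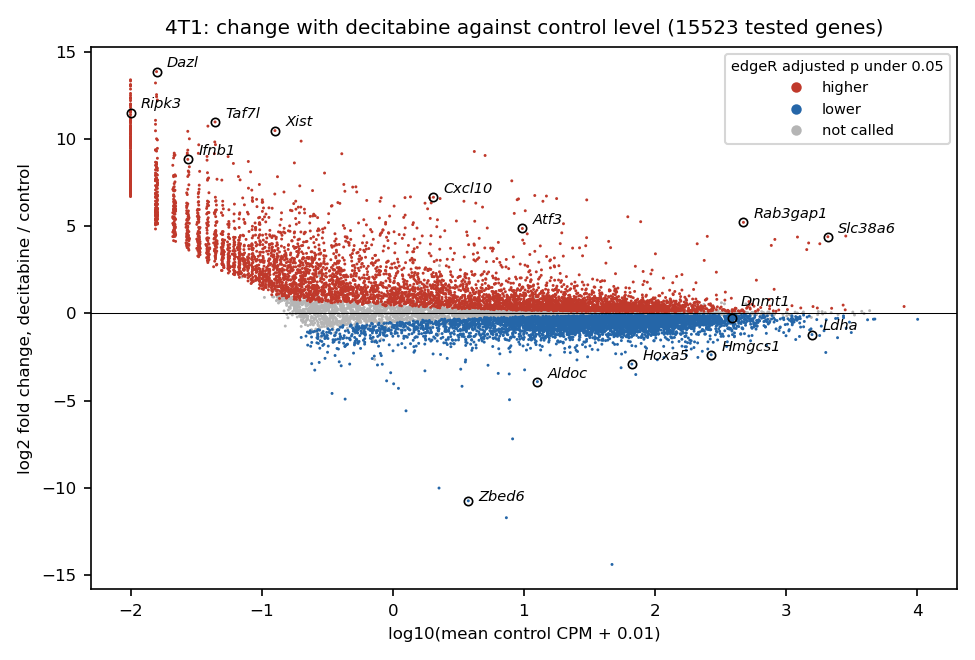
Each point is 1 of 15523 tested genes, with the log10 of its mean control level plus 0.01 CPM on the horizontal axis and its log2 fold change (decitabine over control) on the vertical axis; colours give the call at an adjusted p under 0.05 and circled genes are labelled. Genes near the left edge rose by up to 13.86 log2 units (Dazl), and most genes at high control levels lie close to the 0 line or below it, with Slc38a6 (4.39) and Rab3gap1 (5.22) among those far above it.

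The libraries held 48197936 to 76042600 estimated counts, so that 3 counts correspond to 0.0395 to 0.0622 CPM per library. The biological coefficient of variation was 6.92%. Control replicate 1 stood apart from the other controls on the second principal component, which held 2.51% of the variance (32.2 against -18.1 and -14.5). Counts above 0 were found for 19481 to 19882 genes in the controls and 22770 to 23880 with decitabine. The 10 most counted genes took 5.42% to 5.8% of the counts without the drug and 22.4% to 23.9% with it. This makes the scaling matter: scaled by library totals alone, the median of all genes moved by -0.30 on the log2 scale, and 4248 genes were higher and 8242 lower, or 34% of calls higher against 52.1% with TMM scaling. Values below are with TMM scaling, and CPM values are not corrected for gene length, so levels are compared between libraries and not between genes.

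The cells kept epithelial transcripts in both groups. All 15 epithelial markers passed the filter, with a summed level of 3790 to 3970 CPM in the controls and 3270 to 3510 CPM with decitabine; 6 rose and 7 fell, with a median log2 fold change of -0.12 against 0.03 for all tested genes. Krt8, a keratin of simple epithelia, was at 1200, 1200 and 1210 CPM in the control libraries and 968, 975 and 905 CPM in the decitabine libraries. The groups did not overlap, and the level fell by 0.34 on the log2 scale (SE 0.0417, adjusted p = 2.13e-05). Cldn4, a tight junction protein, moved the other way, with 138, 122 and 135 CPM without the drug and 223, 227 and 231 CPM with it and a change of 0.78 on the log2 scale (SE 0.0499, adjusted p = 1.32e-07). In bulk RNA, fewer cells of a type and less RNA per cell cannot be told apart.

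The target of the drug was among the 13 of 20 tested genes of DNA methylation that were lower. Dnmt1 (ENSMUSG00000004099, mm10 chromosome 9, 20907209 to 20959888, minus strand) was at 361, 395 and 406 CPM in the control libraries and 328, 323 and 305 CPM in the decitabine libraries. All 3 treated libraries lay below all 3 controls, with a change of -0.28 on the log2 scale (SE 0.0523, adjusted p = 0.000515). This is near the median of -0.22 for all genes at 200 CPM or more in the controls, of which 60.4% fell. Uhrf1, which brings Dnmt1 to newly copied DNA, fell from a mean of 282 CPM (SD 10.5) to 204 CPM (SD 16.6, n = 3 each), a change of -0.47 on the log2 scale (SE 0.0592, adjusted p = 3.14e-05), though 24.2% of its sequence words also occur in other genes. The de novo methyltransferase gene Dnmt3a was at 20.5, 13.7 and 16.1 CPM without the drug and 18.1, 16.8 and 20.7 CPM with it. The groups overlapped and it did not pass the test (log2 fold change 0.15, adjusted p = 0.382), though without control replicate 1 it did (0.30, adjusted p = 0.0183). Its relative Dnmt3b fell from 5.1 to 4.12 CPM (-0.31, adjusted p = 0.0121), a call that was lost without decitabine replicate 2 (adjusted p = 0.0506).

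Several genes that oxidise or read methylated cytosine fell by more than Dnmt1. Tet1, a 5-methylcytosine oxidase, was at 3.55, 3.59 and 3.58 CPM in the control libraries and 0.463, 0.632 and 0.454 CPM in the decitabine libraries, which leaves a wide gap between the groups and gives a change of -2.78 on the log2 scale (SE 0.163, adjusted p = 7.04e-08). Tet3, an enzyme of the same family, fell by 1.18 and the methyl-CpG binding genes Mbd2 and Zbtb33 by 0.84 and 0.86 on the log2 scale. In the whole list of DNA methylation genes, 13 of 20 tested members fell and 3 rose (Uhrf2, Zbtb38 and Mbd1), with a median of -0.25. The members had a median control level of 72.5 CPM, and of all genes at 50 to 200 CPM 56.6% fell, with a median of -0.20. The rise of Mbd1 was 0.28 on the log2 scale and became -0.02 when scaled by library totals alone.

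Of 22 tested genes of decitabine uptake and metabolism 14 fell (63.6%) and 4 rose, with a median of -0.29 and a median control level of 66.4 CPM, so that the share lower was near the 56.6% of all genes at 50 to 200 CPM. Thymidine kinase gene Tk1 was at 140, 159 and 160 CPM in the control libraries and 52.7, 52.5 and 45.6 CPM in the decitabine libraries, with no overlap and a change of -1.61 on the log2 scale (SE 0.0709, adjusted p = 2.54e-08). Slc29a1, an equilibrative nucleoside transporter, fell from 84.2 to 62.1 CPM, Dut, which clears dUTP, from 112 to 72.8 CPM, and the CTP synthase gene Ctps2 from 29.4 to 9.39 CPM. Cda, the cytidine deaminase that inactivates decitabine, was among the 4 that rose: it was at 2.66, 1.97 and 2.45 CPM without the drug and 7.07, 6.94 and 5.38 CPM with it, a change of 1.45 on the log2 scale (SE 0.147, adjusted p = 5.11e-06). Of 34 genes of repressive chromatin, 21 fell (61.8%) and 8 rose, with a median of -0.19 and a median control level of 67.1 CPM, again near the share of all genes at that level. Those that fell included Suz12, a core subunit of Polycomb complex PRC2, from 256 to 175 CPM, Cbx5, a heterochromatin protein, from 306 to 165 CPM, and Smchd1, which takes part in X inactivation, from 203 to 142 CPM. Daxx, a chaperone of histone H3.3, rose from 22.8 to 60.7 CPM.

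**Figure D2:**
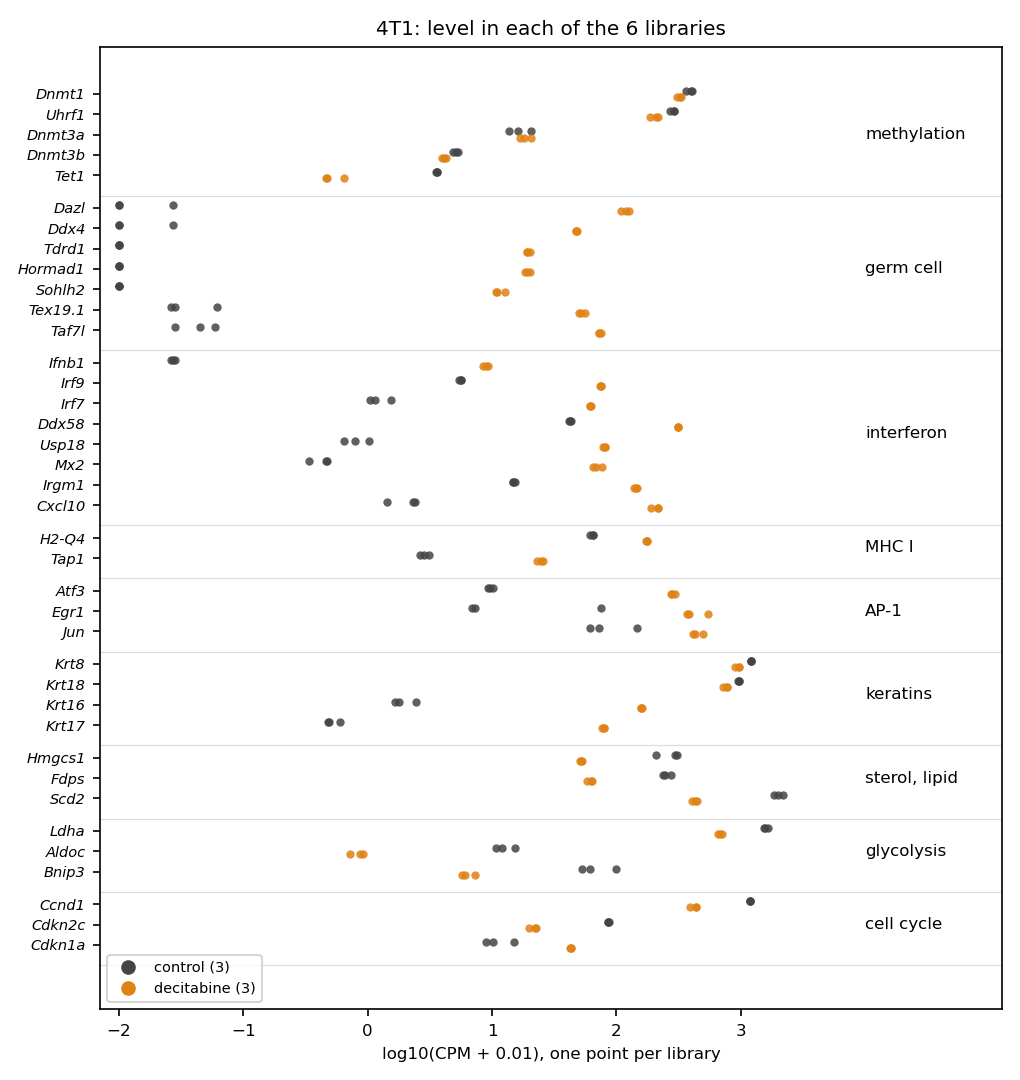
Each point is 1 library, with the log10 of its level plus 0.01 CPM on the horizontal axis; 3 control libraries are grey and 3 decitabine libraries orange, and genes are grouped by role. Germ cell genes such as Tdrd1 move from 0 in every control to about 19 CPM, Dnmt1 moves little, and sterol genes such as Hmgcs1 shift to the left.

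Germline genes gave the largest increases. Of the 15 largest, chosen among genes with a mean of at least 2 CPM and an official symbol, Dazl, Ddx4, Tdrd1, Hormad1, Tex11, Fkbp6, Sohlh2, Tuba3b, D1Pas1 and Slc25a31 are known from germ cells or testis. The windows around the starts of 4 of them are shown because their CpG content can be read against the change in transcription. They come from RefSeq on GRCm38.p6, the assembly also called mm10, and run from 250 bases before the start to 50 after it, with each CpG in capitals.
Dazl: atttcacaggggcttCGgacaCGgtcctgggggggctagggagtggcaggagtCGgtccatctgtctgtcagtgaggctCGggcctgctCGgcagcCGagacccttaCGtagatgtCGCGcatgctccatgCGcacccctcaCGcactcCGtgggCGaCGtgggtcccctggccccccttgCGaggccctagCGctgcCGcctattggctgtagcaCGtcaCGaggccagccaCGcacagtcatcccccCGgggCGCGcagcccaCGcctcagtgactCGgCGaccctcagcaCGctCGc
Ddx4: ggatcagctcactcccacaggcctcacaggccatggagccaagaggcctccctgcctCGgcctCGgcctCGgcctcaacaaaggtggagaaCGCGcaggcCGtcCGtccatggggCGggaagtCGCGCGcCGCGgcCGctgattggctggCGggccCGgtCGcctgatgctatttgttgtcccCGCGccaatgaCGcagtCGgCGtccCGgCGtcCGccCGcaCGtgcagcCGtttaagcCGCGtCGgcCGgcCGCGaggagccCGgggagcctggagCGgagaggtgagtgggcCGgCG
Tuba3b: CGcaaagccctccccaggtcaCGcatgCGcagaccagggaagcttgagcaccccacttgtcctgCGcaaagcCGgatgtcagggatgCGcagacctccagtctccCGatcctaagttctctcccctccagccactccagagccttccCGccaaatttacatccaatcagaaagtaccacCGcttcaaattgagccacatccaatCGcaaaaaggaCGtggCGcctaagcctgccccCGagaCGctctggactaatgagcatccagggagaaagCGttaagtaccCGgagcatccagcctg
Sohlh2: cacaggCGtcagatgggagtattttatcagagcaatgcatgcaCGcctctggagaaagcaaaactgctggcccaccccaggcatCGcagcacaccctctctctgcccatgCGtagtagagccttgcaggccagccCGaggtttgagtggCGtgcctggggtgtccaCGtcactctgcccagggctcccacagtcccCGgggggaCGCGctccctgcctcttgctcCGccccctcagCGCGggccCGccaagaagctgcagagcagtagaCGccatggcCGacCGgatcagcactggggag
These windows lie at chr17:50293571-50293870 (minus strand) for Dazl, chr13:112652261-112652560 (minus strand) for Ddx4, chr6:145615713-145616012 (plus strand) for Tuba3b and chr3:55181794-55182093 (plus strand) for Sohlh2. They hold 28, 38, 16 and 17 CpG in 300 bases.

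Dazl, an RNA-binding protein that germ cells need, was at 0, 0 and 0.0174 CPM in the control libraries and 126, 120 and 109 CPM in the decitabine libraries. That is 1 count in all controls together against 19709, a ratio of 20289 (95% counting interval 3641 to 801407, adjusted p = 6.30e-13). Ddx4, the mouse Vasa helicase, was at 0, 0 and 0.0174 CPM without the drug and 47.8, 47.1 and 47.4 CPM with it, a ratio of 8213 (1474 to 324425, adjusted p = 1.17e-12). Control libraries were thus at or near 0 and treated libraries lay within a narrow range. Sohlh2, a transcription factor of early germ cells, had 0 counts in each control and 10.9, 12.6 and 10.8 CPM with decitabine, which is at least 662-fold higher, the bound set by 3 counts over the control group. Tuba3b, a testis alpha-tubulin, was at 0, 0.0165 and 0 CPM without the drug and 74.9, 78.4 and 72.7 CPM with it, though 43.1% of its words occur in other genes.

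The 5 others among the 15 largest increases were Igsf10, Nlrp1a, Clvs1, Cyp4a12b and Rps4l. Igsf10, an immunoglobulin superfamily member, had 0 counts in each control and 23.9, 24.1 and 19.5 CPM with decitabine, at least 1282-fold higher. Nlrp1a, an inflammasome sensor, had 0 counts in each control and 12.1, 10.6 and 10.4 CPM with the drug, at least 631-fold higher. Clvs1 and the cytochrome P450 gene Cyp4a12b were also at 0 in the controls and reached means of 12.8 and 18.3 CPM, with 35.3% and 62.9% of their words in other genes, and the pseudogene Rps4l rose from 1 count to 7317.

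The piRNA pathway guards germ cells against transposons, and 21 of its 22 tested members rose, with a median of 7.76. Of the 22, 16 were under 0.1 CPM in the controls and could be tested only because they were higher with the drug, so the count is no measure of the list; of the 3 at 0.5 CPM or more 2 rose and 1 fell. Tdrd1, a Tudor domain scaffold of that pathway, had 0 counts in each control and 20.1, 19 and 19 CPM with decitabine, at least 1115-fold higher. Piwil2, which binds piRNAs, was at 0.0362, 0.0496 and 0.122 CPM in the control libraries and 30.7, 29.9 and 29.1 CPM in the decitabine libraries, a change of 8.71 on the log2 scale (SE 0.158, adjusted p = 6.60e-12). Mov10l1, the helicase that precedes it in piRNA production, rose from 0.235 to 31.4 CPM, and Tex19.1, which restrains transposons in germ cells and placenta, from 0.0289 to 52.9 CPM. The exception was Mov10, which is expressed in many tissues and fell from 59.2 to 46.2 CPM, a change of -0.36 on the log2 scale (SE 0.061, adjusted p = 0.000284). The summed level of the list was 93.9 to 103 CPM in the controls and 370 to 381 CPM with the drug.

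Of 39 tested meiosis genes 35 were higher and 3 lower, with a median of 6.95, or 6.41 with genes at 0 in the controls set to their lower bound. Here 29 were under 0.1 CPM in the controls, and of the 8 at 0.5 CPM or more 4 rose and 3 fell. Taf7l, a germ cell form of a general transcription factor subunit, was at 0.0181, 0.0496 and 0.0348 CPM in the control libraries and 75.7, 73.1 and 73.2 CPM in the decitabine libraries, a change of 10.97 on the log2 scale (SE 0.116, adjusted p = 2.85e-13). Hormad1, which coats the axes of meiotic chromosomes, had 0 counts in each control and 18.3 to 20.4 CPM with the drug, at least 1111-fold higher, with 36.3% of its words in other genes. The 3 that fell were Mlh3, Spo11 and Ythdc2. Mlh3, a mismatch repair gene that somatic cells also use, fell from 24.6 to 12.7 CPM. Spo11, which cuts DNA to start recombination, was at 0.615, 0.578 and 0.574 CPM without the drug and 0.278, 0.228 and 0.293 CPM with it, so that this meiotic gene moved against the rest. The call for Ythdc2 (-0.25, adjusted p = 0.0307) was lost without any 1 of 5 libraries (adjusted p 0.0591 to 0.116), the exception being control replicate 1.

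Of 59 X-linked germline genes of the Mage, Rhox and Xlr families and others, 35 were tested, and 33 rose and 1 fell. Among the 35, 27 were under 0.1 CPM in the controls and 20 had 0 counts in every control, so that the filter set their direction. Of the 5 at 0.5 CPM or more 4 rose and 1 fell, at 1 CPM or more in 3 libraries 20 of the list rose, and the median was 8.39, or 6.21 at the lower bounds. Rhox5, a homeobox gene of the reproductive tract known to respond to loss of methylation, was at 1.21, 0.942 and 0.887 CPM in the control libraries and 26.2, 25.1 and 26.5 CPM in the decitabine libraries, a change of 4.68 on the log2 scale (SE 0.103, adjusted p = 3.27e-11). Tex13 rose from 0.0181 to 20.1 CPM and Tktl1, a transketolase-like gene, from 0.104 to 7.04 CPM. The gene that fell was Maged1, a Mage gene of wide expression, from a mean of 502 CPM (SD 14.3) to 366 CPM (SD 24.9, n = 3 each), a change of -0.45 on the log2 scale (SE 0.0528, adjusted p = 1.52e-05). Copies within these families share sequence, so single members are less certain than the family.

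Of 40 early embryo genes 19 were tested, 18 rose and the other did not pass the test, with a median of 1.95. Of the 19, 8 were under 0.1 CPM in the controls, and 6 of the 7 at 0.5 CPM or more rose; at 1 CPM or more in 3 libraries the number that rose was 8. Klf4, a pluripotency factor also used by epithelia, was at 9.21, 9.42 and 9.11 CPM without the drug and 30.2, 28.8 and 25.8 CPM with it, a change of 1.61 on the log2 scale (SE 0.0717, adjusted p = 8.66e-09). Eomes, a T-box factor of trophoblast and mesoderm, rose from 9.84 to 27.6 CPM, and Lin28b, which blocks let-7 processing, from 0.235 to 1.79 CPM. Pou5f1, Nanog and Sox2, the core of the pluripotency network, did not pass the filter. Imprinted genes moved in both directions, with 14 of 31 higher and 15 lower. Of the 31, 5 were under 0.1 CPM in the controls, and of the 24 at 0.5 CPM or more 7 rose and 15 fell. Cdkn1c, a cell cycle inhibitor expressed from the maternal allele, was at 0.0181, 0.033 and 0.0348 CPM in the control libraries and 6.39, 6.41 and 5.73 CPM in the decitabine libraries, a change of 7.64 on the log2 scale (SE 0.223, adjusted p = 3.28e-10). Peg10, a paternally expressed gene of retrotransposon origin, rose from 0.011 to 4.94 CPM, Zrsr1 from 0.0934 to 6.25 CPM and Plagl1 from 1.55 to 6.53 CPM. Blcap and Ppp1r9a fell by 0.90 and 1.12 on the log2 scale.

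The CpG content of promoters varied with the response. A window was found for 10971 tested genes, and their median was 20 CpG. Where a gene had several windows, their mean CpG was used and a motif in any of them counted. Shares with a motif are thus shares of genes, and genes with more windows could match more easily. For genes that rose at least 16-fold it was 8, and for those that rose between 2-fold and 16-fold 12, against 22 for smaller increases and 18 for decreases of at least 2-fold. Low control level goes with low CpG content by itself: genes under 0.5 CPM in the controls had a median of 8.5 where they rose at least 16-fold and 12 where they were not called. The germline lists differed among themselves, with a median of 16.5 for piRNA genes and 21 for meiosis genes, but 8.5 for the X-linked families. The E-box CACGTG, which reads the same on both strands, was found for 33.3% of piRNA genes with a window (6 of 18) and 38.7% of meiosis genes (12 of 31). For the X-linked families the share was 6.67%, and for all genes with a window 11.5%. Among all genes that rose at least 16-fold it was in 10.2%. These are descriptions of letters in windows and were not tested.

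**Figure D3:**
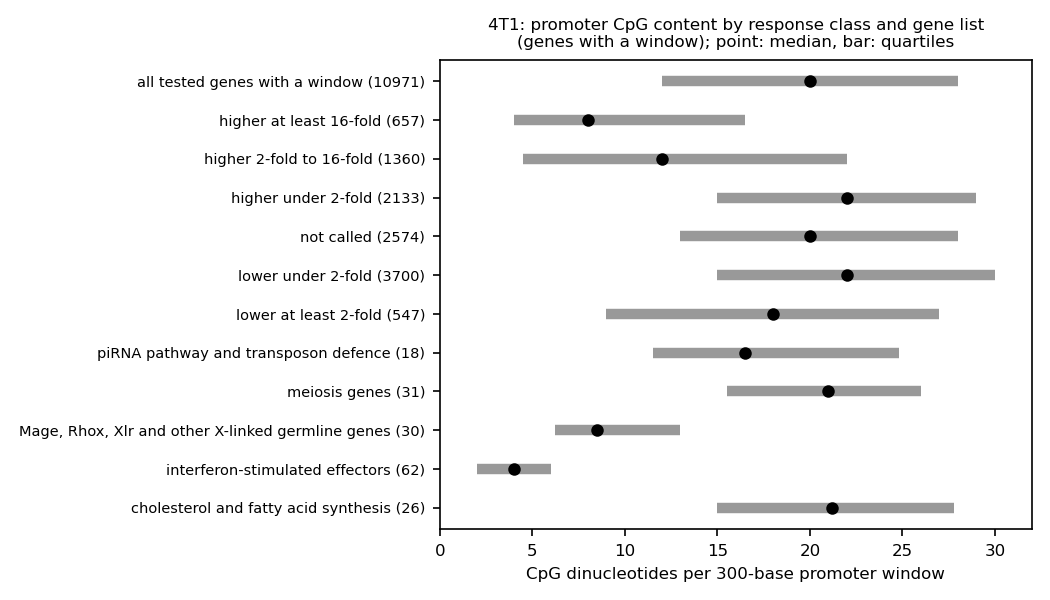
Points are the median and bars the quartiles of CpG dinucleotides per 300-base promoter window (horizontal axis) for response classes and gene lists, with the number of genes in brackets. Genes that rose at least 16-fold have a median of 8, all tested genes 20, meiosis genes 21 and interferon-stimulated effectors 4.

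X-linked genes lay outside the range of the autosomes in both directions. Among genes under 0.5 CPM in the controls, 97 of 158 on the X rose at least 16-fold, or 61.4%, against 28.1% on the autosomes, where single chromosomes ranged from 19.5% to 40.0%. Among genes at 0.5 CPM or more, 59.6% of 354 X-linked genes fell and 16.1% rose, against 44.0% and 30.3% on the autosomes. The median there was -0.35 on the X and -0.10 on the autosomes, whose own medians ran from -0.16 to -0.04. In the class under 0.5 CPM many genes passed the filter only through the treated libraries. Genes near 0 that did not rise are left out, so the shares there depend on the filter. On the X, 61 of the genes that rose had 0 counts in every control. None of these shares was tested, since neighbouring genes are not independent.

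Xist, the noncoding RNA that coats and silences an X chromosome, was among the 5 most certain increases at high level. It was at 0.145, 0.0826 and 0.122 CPM in the control libraries and 159, 172 and 171 CPM in the decitabine libraries, or 20 counts in the controls against 28361. The groups were far apart, with a change of 10.48 on the log2 scale (SE 0.0978, adjusted p = 2.26e-13). Its promoter window is shown because Xist is itself known to be silenced by methylation; it lies at chrX:103483184-103483483 (minus strand) and holds 15 CpG, again in capitals.
Xist: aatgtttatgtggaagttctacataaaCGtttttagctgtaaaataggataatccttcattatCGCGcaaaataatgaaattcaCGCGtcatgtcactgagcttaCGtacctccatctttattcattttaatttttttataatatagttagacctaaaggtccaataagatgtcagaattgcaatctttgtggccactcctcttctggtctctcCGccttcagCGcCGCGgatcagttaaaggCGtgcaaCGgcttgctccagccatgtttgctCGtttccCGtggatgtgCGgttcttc

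**Figure D4:**
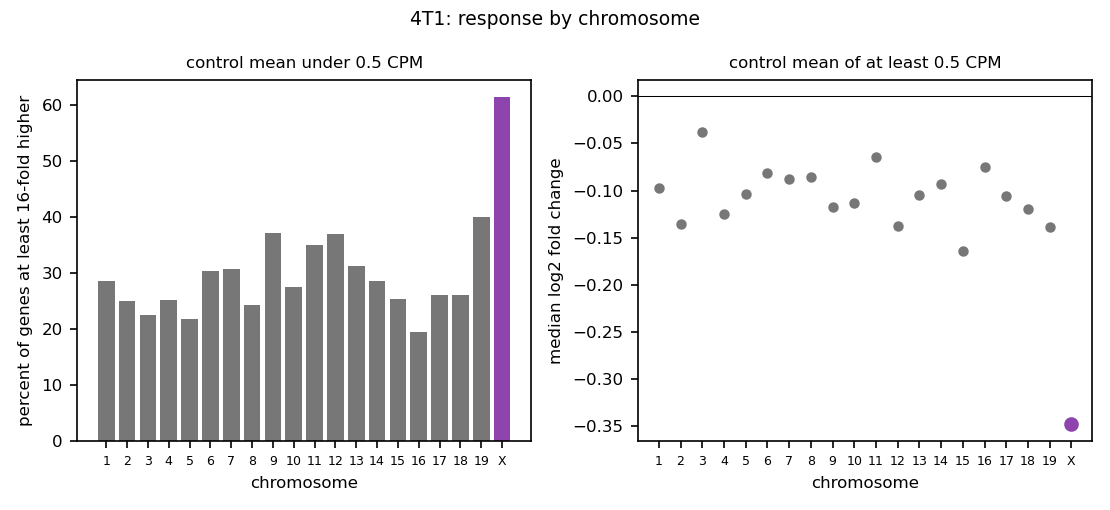
Left, the percentage of genes with a control mean under 0.5 CPM that rose at least 16-fold, by chromosome; right, the median log2 fold change of genes at 0.5 CPM or more. The X (purple) is at 61.4% and -0.35, and the autosomes (grey) lie between 19.5% and 40.0% and between -0.16 and -0.04. The percentages on the left depend on the filter, since genes near 0 in the controls were tested only where they rose.

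Transcripts of interferon beta, of Stat2 and Irf9 and of most effector genes rose, while 3 of the receptor genes fell. Ifnb1, which encodes interferon beta (ENSMUSG00000048806, mm10 chromosome 4, 88522025 to 88522774, minus strand), was at 0.0181, 0.0165 and 0.0174 CPM in the control libraries and 9.27, 8.98 and 8.4 CPM in the decitabine libraries. That is 3 counts over the controls against 1484, a ratio of 509 (95% counting interval 174 to 2472, adjusted p = 5.22e-11). Most interferon alpha genes in the list, and those of interferon gamma and lambda, did not pass the filter. Among the receptor genes, Ifnar1 fell from 46.9 to 34.7 CPM, Ifnar2 from 15.1 to 12.4 CPM and Ifngr2, of the interferon gamma receptor, from 36.2 to 24.6 CPM. Il10rb, a receptor subunit shared with interleukin 10, rose (0.55 on the log2 scale, adjusted p = 0.00082), and Ifngr1 and Ifnlr1 did not pass the test (0.10 and -0.05). Jak2, a kinase that acts below some of these receptors, fell from 115 to 69.1 CPM. Transcription factors below them moved the other way. Stat2 rose from 10.2 to 69.6 CPM and Irf9, its partner in the ISGF3 complex, from a mean of 5.57 CPM (SD 0.123) to 74.6 CPM (SD 0.129, n = 3 each), a change of 3.74 on the log2 scale (SE 0.0519, adjusted p = 1.17e-12). Of 18 tested ligands, receptors and JAK-STAT genes, 9 rose and 7 fell, with a median of 0.18; without the expression filter 14 rose.

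Sensors of foreign nucleic acid followed. Of 28 tested, 18 rose and 2 fell, with a median of 0.81; by library totals alone 9 fell. Ddx58, the gene of the RNA sensor RIG-I, was at 41.6, 42.8 and 42.4 CPM in the control libraries and 313, 311 and 311 CPM in the decitabine libraries, a change of 2.88 on the log2 scale (SE 0.0401, adjusted p = 1.17e-12). Dhx58, a relative that binds RNA without signalling itself, rose from 1.61 to 26.4 CPM, and Zbp1, a sensor of Z-form nucleic acid, from 0.592 to 24.6 CPM. Irf7, the factor that amplifies interferon transcription, was at 1.03, 1.14 and 1.53 CPM without the drug and 61, 62.3 and 61.1 CPM with it, a change of 5.64 on the log2 scale (SE 0.0994, adjusted p = 5.40e-12). The ranges of the groups were far apart. Those that fell were the adaptors: Mavs, through which RNA sensors signal, from 27.7 to 18.6 CPM, and Tmem173, which encodes the DNA pathway's adaptor STING, from 17.5 to 13.4 CPM.

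Effector genes induced by interferon rose as a class, with 75 of 77 tested members higher, 1 lower and a median of 3.90. Of the 60 members at 0.5 CPM or more in the controls 58 rose. Their summed level was 891 to 1010 CPM in the controls and 4440 to 4570 CPM with the drug. Mx2, an antiviral GTPase that the annotation calls a polymorphic pseudogene in mouse, was at 0.326, 0.463 and 0.452 CPM in the control libraries and 68.5, 65.2 and 76.7 CPM in the decitabine libraries, a change of 7.39 on the log2 scale (SE 0.115, adjusted p = 2.03e-12). Usp18, which removes Isg15 from proteins and dampens the interferon receptor, rose from a mean of 0.806 CPM (SD 0.189) to 80 CPM (SD 1.97, n = 3 each), a change of 6.63 on the log2 scale (SE 0.0992, adjusted p = 1.74e-12). Irgm1, an immunity-related GTPase, was at 14.6, 15.4 and 14.7 CPM without the drug and 147, 145 and 138 CPM with it, and Gbp7, a guanylate-binding protein, at 4.96, 5.29 and 4.84 CPM without the drug and 68.4, 66.9 and 68.4 CPM with it. For each of these the 6 libraries fell into separate ranges. The member that fell was Ifitm2, from 62.9 to 41.2 CPM, a change of -0.61 on the log2 scale (SE 0.0437, adjusted p = 3.28e-07); 55.5% of its words occur in other genes.

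Many promoters of these genes shared a short motif. The motif is the letters GAAA in 2 copies with 2 bases between them, the core of the element that IRF factors are known to bind. It occurred on either strand for 56.5% of effector genes with a window (35 of 62) and 23.8% of MHC class I genes (5 of 21). The share was 9.68% for meiosis genes and 3.83% for all genes with a window. Effector genes had a median of 4 CpG. The windows of Irgm1, Gbp7 and Irgm2 are shown with the matches in capitals, Gbp7 with the match on the opposite strand; Irgm2 was chosen after its values were seen. In Irgm1, 2 matches overlap each other.
Irgm1: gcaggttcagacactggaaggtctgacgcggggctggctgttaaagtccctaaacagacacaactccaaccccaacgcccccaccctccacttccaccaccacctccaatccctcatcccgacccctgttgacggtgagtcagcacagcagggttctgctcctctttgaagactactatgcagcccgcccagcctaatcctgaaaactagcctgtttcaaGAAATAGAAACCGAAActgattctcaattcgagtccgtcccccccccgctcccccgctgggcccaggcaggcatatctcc
Gbp7: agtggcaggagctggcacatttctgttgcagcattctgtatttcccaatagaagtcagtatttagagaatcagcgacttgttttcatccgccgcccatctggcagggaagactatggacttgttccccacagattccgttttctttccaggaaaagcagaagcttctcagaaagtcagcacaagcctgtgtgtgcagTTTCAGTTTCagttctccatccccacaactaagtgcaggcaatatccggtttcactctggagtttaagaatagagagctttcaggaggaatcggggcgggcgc
Irgm2: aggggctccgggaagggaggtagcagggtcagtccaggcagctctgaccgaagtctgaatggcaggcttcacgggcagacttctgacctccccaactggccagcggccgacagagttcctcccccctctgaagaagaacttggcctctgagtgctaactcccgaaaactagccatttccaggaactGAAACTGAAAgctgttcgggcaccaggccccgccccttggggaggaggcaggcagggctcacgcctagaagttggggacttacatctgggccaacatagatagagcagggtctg
They lie at chr11:48871371-48871670 (minus strand) for Irgm1, chr3:142530086-142530385 (plus strand) for Gbp7 and chr11:58214727-58215026 (plus strand) for Irgm2. Irgm2 rose from 2.49 to 66.6 CPM (log2 fold change 4.74, adjusted p = 3.18e-12).

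MHC class I genes, which display peptides to CD8 T cells, rose in 23 of 27 cases and fell in 2, with a median of 0.99. Tap1, a subunit of the pump that carries peptides into the endoplasmic reticulum, was at 3.11, 2.86 and 2.63 CPM in the control libraries and 24.8, 25.7 and 22.8 CPM in the decitabine libraries, a change of 3.09 on the log2 scale (SE 0.0865, adjusted p = 2.36e-10); it overlaps Psmb9 on the opposite strand. H2-T23, which encodes Qa-1, rose from 15.9 to 58.1 CPM, and H2-Q4 from 63.8 to 174 CPM, though 53% of the words of H2-Q4 occur in other genes. Those that fell were Erap1, which trims peptides, from 53.9 to 40.8 CPM, and Cd1d1, which presents lipids, from 3.22 to 1.36 CPM. For MHC class II, 3 of 9 listed genes were tested and 2 rose, among them Cd74, the invariant chain, from 3.39 to 5.09 CPM.

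Chemokine genes rose in 13 of 15 tested cases and fell in 2, with a median of 2.23. Of the 15, 2 were under 0.1 CPM in the controls, so that the filter set their direction. Of the 10 at 0.5 CPM or more 8 rose and 2 fell. Cxcl10, a ligand of the chemokine receptor Cxcr3 of T cells, was at 1.41, 2.38 and 2.31 CPM in the control libraries and 215, 215 and 189 CPM in the decitabine libraries, a change of 6.66 on the log2 scale (SE 0.149, adjusted p = 1.35e-08). Ccl5 rose from 1.95 to 19.3 CPM and Ccl4 from 0.0565 to 13.8 CPM; both draw T cells and monocytes. Cxcl5, which draws neutrophils, was at 14.2, 20.9 and 24.9 CPM without the drug and 6.81, 6.5 and 5.89 CPM with it, so that it fell by 1.65 on the log2 scale, and Cx3cl1 fell by 0.59. Cytokines and growth factors split, with 24 of 41 higher and 13 lower. Of the 41, 6 were under 0.1 CPM in the controls, and of the 30 at 0.5 CPM or more 13 rose and 13 fell. Tnf was at 0.489, 0.413 and 0.504 CPM without the drug and 9.41, 8.03 and 9.3 CPM with it, a change of 4.24 on the log2 scale (SE 0.137, adjusted p = 7.18e-10). Il15, a growth factor of natural killer cells, rose from 1.46 to 7.33 CPM and Il33, an alarmin, from 0.455 to 6.87 CPM. Il34, another ligand of Csf1r, fell from 13.6 to 5.05 CPM, Pdgfb from 93.2 to 48.3 CPM and Spp1, osteopontin, from 198 to 126 CPM.

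Of 24 NF-kB genes 16 rose and 5 fell; scaled by library totals alone, 10 rose and 8 fell. Nfkbia, the inhibitor that NF-kB itself induces, rose from a mean of 37.7 CPM (SD 1.61) to 93.7 CPM (SD 0.945, n = 3 each), a change of 1.31 on the log2 scale (SE 0.045, adjusted p = 1.13e-09), and Relb from 25.8 to 57.9 CPM. Of the adhesion molecules that NF-kB induces, Icam1 rose from 3.44 to 13.2 CPM and Vcam1 fell from 83.1 to 40.8 CPM. Among checkpoint and natural killer cell ligands, 9 of 19 rose and 7 fell. Of the 15 at 0.5 CPM or more in the controls 5 rose and 7 fell. Cd274, which encodes PD-L1, was at 1.45, 1.39 and 1.51 CPM in the control libraries and 18.4, 18.3 and 19.9 CPM in the decitabine libraries, a change of 3.70 on the log2 scale (SE 0.0871, adjusted p = 5.69e-11). Lgals9, the galectin ligand of Tim-3, rose from 6.55 to 49.7 CPM and Ulbp1, a ligand of the activating receptor NKG2D, from 20.8 to 45.2 CPM. Nt5e, the ectoenzyme CD73, fell from 88 to 33.8 CPM, and Cd24a from 400 to 231 CPM.

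Genes of the p53 pathway were mixed. Trp53 itself was at 37.1, 39.5 and 39 CPM in the control libraries and 82.2, 83.8 and 89.5 CPM in the decitabine libraries, a change of 1.14 on the log2 scale (SE 0.0489, adjusted p = 6.51e-09), with all treated libraries above the controls. The list of Trp53 and its target genes had 21 of 37 tested members higher and 9 lower, with a median of 0.24. Whether the p53 protein took part in these changes was not tested. Gdf15, a stress cytokine, had 1 count over the controls and 2.83, 2.53 and 3.4 CPM with the drug. Cdkn1a, the cell cycle inhibitor p21, was at 15, 8.91 and 10.1 CPM without the drug and 42.7, 43.4 and 43.2 CPM with it, a change of 1.93 on the log2 scale (SE 0.184, adjusted p = 9.50e-05). Apaf1, of the apoptosome, fell from 40.5 to 20.4 CPM, Mdm4, a p53 inhibitor, from 77.7 to 45.6 CPM, and Zmat3 from 37.6 to 24.5 CPM. Of 37 cell death genes, 18 fell and 14 rose. Bcl2 and Mcl1, which hold apoptosis back, fell by 1.67 and 0.83 on the log2 scale. Ripk3, the kinase of necroptosis, had 0 counts in each control and 6.3, 6.62 and 6.33 CPM with the drug, at least 371-fold higher. Gsdme, a pore-forming gasdermin that is known to be methylated in some human tumours, was at 15.9, 17.4 and 16.5 CPM in the control libraries and 11.2, 10.5 and 10.5 CPM in the decitabine libraries, so that it was lower with decitabine (change of -0.63 on the log2 scale (SE 0.0672, adjusted p = 7.86e-06)).

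Of 23 cell cycle genes of G1, 15 fell (65.2%) and 5 rose, with a median of -0.35, beside 47.5% lower among all genes at 10 to 50 CPM, where the list's median control level lay. Ccnd1, which encodes cyclin D1, was at 1190, 1190 and 1180 CPM in the control libraries and 439, 433 and 388 CPM in the decitabine libraries, a change of -1.5 on the log2 scale (SE 0.0511, adjusted p = 1.10e-09). Its partner Cdk6 fell from 171 to 78.8 CPM, the inhibitor Cdkn2c from 86.3 to 21.6 CPM and E2f8, a repressor of S phase genes, from 171 to 55.5 CPM. Of 51 replication genes 24 fell and 16 rose, and of 48 genes of G2 and mitosis 29 fell and 7 rose, with medians of -0.10 and -0.20; by library totals alone 39 and 44 fell and 5 and 3 rose. Both lists lay at 50 to 200 CPM by their median control level, and their shares lower (47.1% and 60.4%) were below and near the 56.6% of all genes there. Top2a, the topoisomerase of dividing cells, fell from 1270 to 870 CPM and Espl1, the separase gene, from 79.8 to 45.8 CPM. The mitotic genes Aurka and Cdc20 moved the other way, from 91.6 to 153 CPM and from 175 to 293 CPM. Of 46 genes of the Fanconi pathway and double-strand break repair, 30 fell and 7 rose, with a median of -0.33. Brca1 fell from 71.7 to 49.5 CPM, Rad54l from 25.9 to 13.9 CPM and Fancb from 23 to 11.8 CPM, while Rmi1 rose from 22 to 34 CPM.

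Of 56 tested replication-dependent histone genes 51 rose and the other 5 did not pass the test, with a median of 2.85. Hist1h2bc was at 2.23, 2.25 and 2 CPM in the control libraries and 64.7, 66.2 and 72.1 CPM in the decitabine libraries, a change of 4.97 on the log2 scale (SE 0.0755, adjusted p = 1.80e-12). Hist1h1c, a linker histone, rose from 6.22 to 54.8 CPM. The summed level of the histone genes was 32.7 to 35.8 CPM without and 249 to 288 CPM with the drug. Slbp, which is no histone but binds the stem-loop at the end of histone mRNAs and is in the same list, fell from 117 to 97.9 CPM. These mRNAs normally have no poly(A) tail, so their level in a library depends on how RNA was selected, and copies share sequence. In this list of 57, 18 members were under 0.1 CPM in the controls and 7 of the 9 at 0.5 CPM or more rose; at 1 CPM or more in 3 libraries 25 rose.

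Sterol and fatty acid synthesis fell almost without exception: 34 of 36 tested genes were lower and the others did not pass the test, with a median of -1.39, and the summed level went from 6710 to 8270 CPM down to 2620 to 2820 CPM. Fdps, which makes farnesyl pyrophosphate, was at 237, 248 and 274 CPM in the control libraries and 63, 63.8 and 58.3 CPM in the decitabine libraries, a change of -2.04 on the log2 scale (SE 0.061, adjusted p = 4.38e-10). Scd2, a stearoyl-CoA desaturase, fell from a mean of 2010 CPM (SD 169) to 426 CPM (SD 20.9, n = 3 each), a change of -2.24 on the log2 scale (SE 0.0652, adjusted p = 5.82e-10). Elovl6, which lengthens fatty acids, was among the 5 most certain decreases at high level, with 165, 174 and 182 CPM without the drug and 32.3, 33.6 and 32.1 CPM with it and a change of -2.41 on the log2 scale (SE 0.0485, adjusted p = 1.55e-11). Srebf2, the transcription factor that drives sterol genes, fell from 169 to 67.9 CPM. Hmgcs1, an early step of the mevalonate pathway named here after its values were seen, fell from 269 to 52 CPM (log2 fold change -2.37, adjusted p = 2.83e-05). Its window holds TCACNCCAC, the letters of a sterol response element. These letters occurred for 1 of 26 genes of the list with a window and for 1.31% of all genes with a window. The window of Hmgcs1 lies at chr13:119690101-119690400 (plus strand), with the match in capitals.
Hmgcs1: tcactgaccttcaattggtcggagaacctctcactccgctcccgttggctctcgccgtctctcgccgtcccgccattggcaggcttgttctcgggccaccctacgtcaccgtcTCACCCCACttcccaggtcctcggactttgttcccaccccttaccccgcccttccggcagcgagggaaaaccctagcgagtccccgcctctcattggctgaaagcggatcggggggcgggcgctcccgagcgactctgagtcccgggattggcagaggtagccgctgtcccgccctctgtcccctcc

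Glycolysis and hypoxia genes fell as well, with 29 of 39 lower, 6 higher and a median of -0.84. Ldha, which turns pyruvate into lactate, was at 1650, 1560 and 1530 CPM in the control libraries and 686, 700 and 656 CPM in the decitabine libraries, a change of -1.21 on the log2 scale (SE 0.0451, adjusted p = 2.19e-09). Aldoc, an aldolase, was at 15.2, 10.9 and 11.9 CPM without the drug and 0.718, 0.861 and 0.908 CPM with it, among the 15 largest decreases, with a change of -3.91 on the log2 scale (SE 0.162, adjusted p = 7.27e-09). Bnip3, a hypoxia-induced mitophagy gene, was at 100, 61.5 and 52.8 CPM without the drug and 7.32, 6.03 and 5.71 CPM with it; 57.0% of its words occur in other genes. Control replicate 1, which stood apart, was the highest control for Ldha, Aldoc, Bnip3 and Vegfa (27.6 CPM against 17.3 and 16.3), and without it 29 genes of the list were again lower; its part in the result was not tested further. Tpi1 fell from 551 to 229 CPM and Car12 from 43.9 to 18.7 CPM. The genes that rose included the transporters Slc2a3, from 0.393 to 2.34 CPM, and Slc16a3, from 0.253 to 1.89 CPM, and Vegfa, from 20.4 to 37.8 CPM, a call that library totals alone would miss (0.59, adjusted p = 0.0504).

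**Figure D5:**
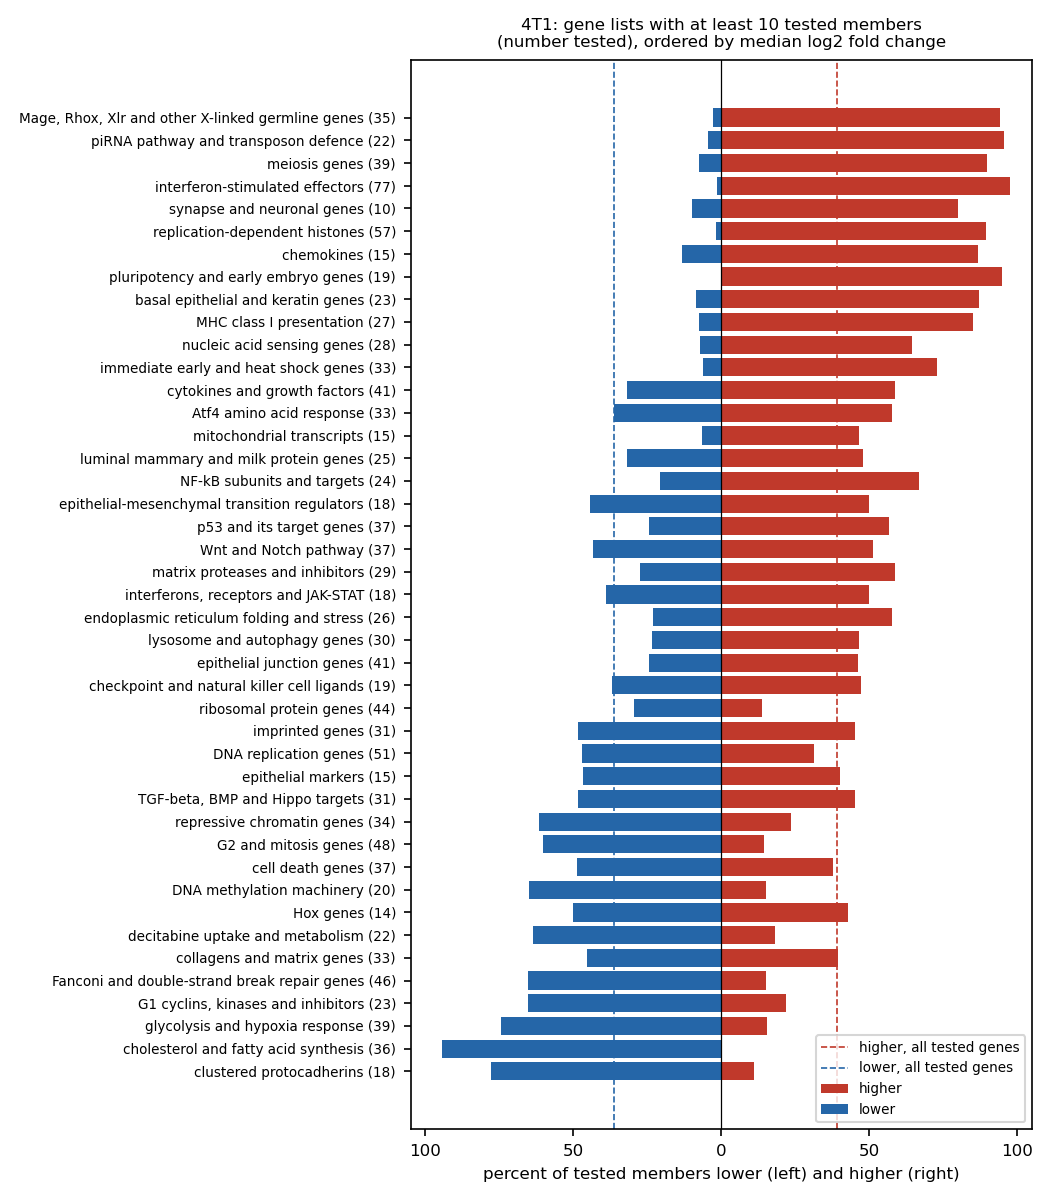
Bars give, for each list with at least 10 tested members (number in brackets), the percentage lower (left, blue) and higher (right, red), ordered by median log2 fold change; dashed lines mark 39.2% higher and 36.1% lower over all tested genes. Germline, interferon-stimulated effector and histone lists are nearly all red. For germline and histone lists the filter partly fixes this, since many members were at or near 0 in the controls. The list of interferons, receptors and JAK-STAT genes is divided (50.0% higher and 38.9% lower). Cholesterol synthesis is nearly all blue, and clustered protocadherins are mostly blue (77.8% lower and 11.1% higher).

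Stress genes rose in part. Atf3, a stress-induced transcription factor, was among the 5 most certain increases at high level, with 9.72, 9.24 and 10.3 CPM in the control libraries and 280, 277 and 296 CPM in the decitabine libraries and a change of 4.87 on the log2 scale (SE 0.0567, adjusted p = 3.79e-13). Of 33 genes of the Atf4 amino acid response, 19 rose and 12 fell; Trib3 rose from 14.7 to 38.4 CPM and Aars from 342 to 580 CPM, but Psat1 fell from 475 to 342 CPM and Cth from 14 to 7.65 CPM. Of 26 genes of folding and stress in the endoplasmic reticulum, 15 rose and 6 fell, or 9 rose and 13 fell by library totals alone. Herpud1 rose from 27.8 to 72.6 CPM and Calr, calreticulin, from 522 to 835 CPM, whereas the sensors Ern1 and Atf6 fell by 0.81 and 0.58 on the log2 scale. Immediate early and heat shock genes, which also respond to handling of cells, rose in 24 of 33 cases and fell in 2, with a median of 0.64; by library totals alone 15 rose. Klf10 rose from 48.1 to 103 CPM and Hspb1 from 2.3 to 48.2 CPM, the latter with 55.4% of its words in other genes. Dusp6, a target of ERK signalling, fell from 135 to 62.1 CPM. Their part in other results was not tested.

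Lysosome and autophagy genes rose in 14 of 30 cases and fell in 7, with 6 higher and 16 lower by library totals alone. Atp6v0d1, a subunit of the proton pump, rose from a mean of 18.1 CPM (SD 0.395) to 41.8 CPM (SD 0.972, n = 3 each), a change of 1.21 on the log2 scale (SE 0.051, adjusted p = 5.86e-09). Ribosomal protein genes mostly did not pass the test (25 of 44), with 6 higher and 13 lower; by library totals alone 40 were lower. Rpl5 fell from 80.6 to 50.7 CPM and Rps4x from 1150 to 819 CPM. Of 15 mitochondrial transcripts 7 rose, such as mt-Co1 from 7960 to 10500 CPM, but 0 rose by library totals alone, and the share of all counts from the mitochondrial genome was 2.63% to 3.06% without and 2.52% to 2.83% with the drug.

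Of 23 basal epithelial and keratin genes 20 rose and 2 fell, with a median of 1.80; of the 14 at 0.5 CPM or more in the controls 11 rose. Over all 16 tested genes whose symbols start with Krt, 9 rose and 4 fell, with a median of 0.60, and Krt17 and Krt16 rose most steeply of those in the list. Krt17 was at 0.471, 0.479 and 0.591 CPM in the control libraries and 79.6, 80.2 and 76.7 CPM in the decitabine libraries, a change of 7.26 on the log2 scale (SE 0.0813, adjusted p = 3.79e-13). Krt16 was at 1.67, 2.43 and 1.77 CPM without the drug and 157, 159 and 161 CPM with it, with 51.9% of its words in other genes. Cdh3, P-cadherin, rose from 1.09 to 8.41 CPM and Jag2, a Notch ligand, from 11.8 to 34.7 CPM. The 2 that fell were the hemidesmosome integrins Itgb4 and Itga6, by 0.28 and 0.16 on the log2 scale. The luminal list divided, with 12 of 25 higher and 8 lower. Of its 18 members at 0.5 CPM or more in the controls 6 rose and 7 fell. Foxa1, a pioneer factor of luminal cells, rose from a mean of 3 CPM (SD 0.187) to 11 CPM (SD 0.158, n = 3 each) and Elf3 from 8.32 to 27.7 CPM, while Gata3 fell from a mean of 83 CPM (SD 3.45) to 40 CPM (SD 3.07, n = 3 each), Esr1, the estrogen receptor, from 11.4 to 3.95 CPM, and Erbb2 from 48.9 to 29.1 CPM.

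Of 41 junction genes 19 rose and 10 fell, or 18 fell by library totals alone. Cldn6, a claudin of embryonic epithelia, was at 0.181, 0.43 and 0.504 CPM in the control libraries and 31.7, 33.5 and 27.3 CPM in the decitabine libraries, a change of 6.35 on the log2 scale (SE 0.195, adjusted p = 6.61e-09). Ovol1 and Grhl2, transcription factors that keep the epithelial state, rose by 2.11 and 0.93 on the log2 scale, and Esrp1, an epithelial splicing factor, fell by 0.70. Regulators of the epithelial-mesenchymal transition were divided within families, with 9 of 18 higher and 8 lower. Of the 15 at 0.5 CPM or more in the controls 6 rose and 8 fell. Zeb1 was at 0.706, 1.21 and 0.696 CPM without the drug and 4.87, 4.83 and 4.84 CPM with it and rose by 2.47, whereas Zeb2 was at 45.2, 49.1 and 49.4 CPM without the drug and 15.1, 16.2 and 13.6 CPM with it and fell by 1.68 on the log2 scale. Snai1 rose from 9.39 to 16.3 CPM, and S100a4 and the receptor tyrosine kinase gene Axl fell from 365 to 149 CPM and from 885 to 447 CPM.

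Of 33 collagen and matrix genes 13 rose and 15 fell; at 1 CPM or more in 3 libraries 8 rose. The fibrillar collagens Col1a1 and Col1a2 rose from 0.578 to 9.55 CPM and from 0.205 to 5.27 CPM, while Col6a1 and Col8a1 fell by 1.38 and 1.69 on the log2 scale, Col4a5 of basement membranes fell from 22.6 to 4.74 CPM and Col18a1 from 162 to 78.8 CPM. Proteases and inhibitors rose in 17 of 29 cases and fell in 8. Mmp9, a gelatinase, rose from a mean of 265 CPM (SD 2.79) to 388 CPM (SD 12.6, n = 3 each), a change of 0.55 on the log2 scale (SE 0.0405, adjusted p = 4.10e-07), and Mmp3, a stromelysin, fell from a mean of 63.7 CPM (SD 1.53) to 27.8 CPM (SD 1.04, n = 3 each), a change of -1.20 on the log2 scale (SE 0.0483, adjusted p = 4.15e-09). Of 37 Wnt and Notch genes 19 rose and 16 fell, among them Wnt11 from 0.22 to 2.05 CPM and Wnt7b from 141 to 54.3 CPM. Of 31 TGF-beta, BMP and Hippo genes 14 rose and 15 fell. Id1 and Id3, which BMP signals induce, rose by 2.73 and 1.5, and Tead1 and Tead2, the DNA-binding partners of Yap, fell by 0.87 and 1.21 on the log2 scale.

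Decreases of at least 4-fold were found for 82 genes. Clustered protocadherins, cell adhesion molecules of neurons encoded side by side, fell in 14 of 18 tested cases and rose in 2, with a median of -2.77. Pcdhb21 was at 3.06, 3.27 and 3.77 CPM in the control libraries and 0.232, 0.123 and 0.205 CPM in the decitabine libraries, a change of -4.18 on the log2 scale (SE 0.22, adjusted p = 3.07e-08). Pcdhb17 fell by 3.19 and Pcdhb22 by 2.97 on the log2 scale. In the neighbouring gamma cluster, Pcdhga12 rose from 0.105 to 2.42 CPM and Pcdhgc3 fell from 64.9 to 33.2 CPM. Both overlap each other and further gamma genes, with 38.6% and 66.2% of their words in other genes, so their counts are uncertain. At 1 CPM or more in 3 libraries 9 members of the list fell. Of 14 tested Hox genes 6 rose and 7 fell, and the number that rose was 12 with no filter, 10 with DESeq2 and 2 at 1 CPM or more in 3 libraries. Hoxa5 was at 75.8, 61.6 and 62.5 CPM in the control libraries and 8.13, 9.5 and 8.98 CPM in the decitabine libraries, a change of -2.90 on the log2 scale (SE 0.0942, adjusted p = 3.05e-09), while Hoxa9, further along the same cluster, rose from 2.16 to 4.5 CPM. The annotated span of Hoxa3 overlaps those of Hoxa4, Hoxa5 and Hoxa6 on the same strand, so their counts are uncertain.

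The other large decreases named by the same rule came from single genes. Etv1, an ETS transcription factor, was at 58.9, 54.2 and 52.5 CPM in the control libraries and 7.16, 6.18 and 5.91 CPM in the decitabine libraries, a change of -3.11 on the log2 scale (SE 0.0794, adjusted p = 1.11e-10). Adamts9, a matrix protease, fell from 6.37 to 0.58 CPM, Trib2, a pseudokinase, from 10.1 to 1.09 CPM, Tenm4, a teneurin, from 25.4 to 4 CPM, and Osr1, a zinc finger factor, from 3.59 to 0.577 CPM. Hmga2, a chromatin protein of embryonic and tumour cells, was at 264, 286 and 286 CPM without the drug and 88.9, 89 and 87.6 CPM with it, among the 5 most certain decreases at high level with Ank, Dcbld2, Mtap and Elovl6. Mtap, an enzyme of methionine salvage, fell from a mean of 710 CPM (SD 13.6) to 200 CPM (SD 9.45, n = 3 each). Zbed6 had 650 counts over the controls and 0 with decitabine, at least 210-fold lower, but all of its words lie in Zc3h11a, in which it sits on the same strand, so its counts are uncertain. The pseudogene Rpl17-ps9, at 7.64, 3.06 and 13.9 CPM without the drug and 0.209, 0 and 0 CPM with it, has 90.5% of its words in other genes, and its call was lost without decitabine replicate 1 (adjusted p = 0.0547) and with limma-voom (adjusted p = 0.0635).

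A few loci took much of the libraries. Of the 10 most counted genes with decitabine, mt-Co1 aside, 9 rose by 3.66 to 5.22 on the log2 scale, and their share of all counts went from 1.44% to 22.3%. RP24-390N7.1, an unclassified locus on chromosome 5, was at 2620, 2970 and 2980 CPM in the control libraries and 63300, 58600 and 63500 CPM in the decitabine libraries. Slc38a6, annotated as an amino acid transporter gene, was at 1920, 2170 and 2170 CPM without the drug and 45000, 41400 and 45300 CPM with it, and Ccrn4l, which encodes the circadian deadenylase nocturnin, at 1150, 1240 and 1280 CPM without the drug and 25500, 24200 and 26600 CPM with it. For all 3 the treated libraries lay far above the controls. Most of the 9 hold words that occur in other genes: 97.6% of Gm29084, 91.5% of Gm9864, 91.1% of RP24-390N7.1, 90.1% of Gm10040, 81.7% of Gm38194, 54.4% of RP23-93A21.1, 40.7% of Slc38a6 and 39.0% of Ccrn4l. Rab3gap1, of a Rab GTPase-activating complex, had 11.4% and was at 451, 486 and 484 CPM without the drug and 18000, 16500 and 18400 CPM with it, a change of 5.22 on the log2 scale (SE 0.0615, adjusted p = 3.93e-13). Which copies gave these reads cannot be told from counts per gene. Cep112os2, a transcript within an intron of Cep112 on the same strand, rose from a mean of 10.2 CPM (SD 0.258) to 605 CPM (SD 27.9, n = 3 each).

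Markers of cells other than carcinoma cells were low but moved. Of 12 blood and immune markers 5 were tested and all 5 rose, with a summed level of 3.26 to 4.14 CPM in the controls and 23.5 to 24.9 CPM with decitabine. Of the 5, 2 were under 0.1 CPM in the controls, so that the filter set their direction, and the 2 at 0.5 CPM or more rose. Csf1r, the macrophage colony-stimulating factor receptor, rose from 0.917 to 12.4 CPM and Ptprc, which encodes CD45, was at 0.0543, 0.0661 and 0.104 CPM without the drug and 0.788, 1.41 and 1.26 CPM with it. Adgre1, Nkg7 and Tyrobp were at 0 in all 6 libraries, and Cd3e, Lyz2 and Laptm5 were at most 0.0879 CPM in any. Of 12 fibroblast markers 6 were tested, 5 rose and 1 fell, with a summed level of 30.9 to 33.2 CPM and of 60 to 65.7 CPM. Lum, Dpt and Col3a1 were at most 0.0232 CPM in any library, and Pdgfra fell from 9.34 to 4.89 CPM. Endothelial markers rose in 2 of 5 tested cases (summed 65.4 to 73.3 and 72.2 to 98.9 CPM), among them Cdh5, VE-cadherin, from 0.282 to 8.13 CPM. Of the 5, 1 was under 0.1 CPM in the controls, and of the 2 at 0.5 CPM or more 0 rose. Melanocyte markers rose in 3 of 3 tested cases (5.41 to 6.33 and 8.43 to 10.1 CPM), with Tyrp1 at 0 throughout. Of the 3, 1 was under 0.1 CPM in the controls, so that the filter set its direction, and the 1 at 0.5 CPM or more rose. The call for Pmel was lost in 6 of the alternatives tried. Of 30 synapse and neuronal genes 10 were tested, and 8 rose, such as Nlgn1 from 0 to 3.34, 2.81 and 2.59 CPM, and 1 fell. Of the 10, 6 were under 0.1 CPM in the controls and could be tested only because they were higher with the drug. Of the 2 at 0.5 CPM or more 0 rose and 1 fell. The summed level of this list was 60.4 to 61.9 CPM in the controls and 55.4 to 61.7 CPM with decitabine. The part of cells other than carcinoma cells in other results was not tested.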

How the data were processed

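The deposited table for 4T1 holds estimated counts per gene as the authors deposited them, not scaled between libraries. RSEM, edgeR and the genome build mm10 are named in the submitters' processing notes, without versions or roles; for the aligner, annotation, strand setting and any use of molecular indices, nothing is given in the sources used here. Of 46517 genes, 46005 matched GENCODE M21 by identifier, and 27 symbols altered by a spreadsheet were restored. Estimated counts were rounded to whole numbers.

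The 3 control and 3 decitabine libraries were compared with edgeR 4.0.16 in R 4.3.3 (filterByExpr, TMM scaling, robust quasi-likelihood fit and test, Benjamini-Hochberg adjustment, threshold 0.05). DESeq2 1.42.0, limma 3.58.1, other scalings and filters, a replicate block and leaving out each library were alternatives. No pair of replicates agreed within sampling noise (chi-square per degree of freedom 5.67 to 21.3). Bounds use 3 counts over a group and intervals are 95%; both cover counting error only.

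The libraries and gene lists were chosen with earlier results of these data known, and lists were described, not tested. Named genes were the 15 largest increases and decreases among called genes with an official symbol, at least 2 CPM in the higher group and no overlap between groups, the 5 most certain in each direction at 100 CPM or more, up to 4 members per list and direction, the 10 most counted genes and 7 fixed ones. Words are 31-base stretches of a gene's transcripts. The fit was also run on simulated counts, with few genes changed and the same spread for all genes. In these data 75.3% of tested genes were called, so that run cannot test the scaling or the calls reported here. Some genes are not reported here. Python 3.11.15 and matplotlib 3.10.9 made the figures.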

Additional observations from a re-analysis of the deposited data

How the results depend on the processing

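The numbers of genes higher and lower stayed within 1.5 times of 6087 and 5601 under RLE size factors, DESeq2, limma-voom, the replicate block, no filter, a filter at 1 CPM in 3 libraries, library totals alone and without the 10 most counted genes of each library. Without 1 library each in turn they ranged from 5803 to 6554 and from 5257 to 5897. Similar totals can hide changed calls: by library totals alone 4248 of the 6087 were again higher, and 282 genes were called in the opposite direction. The replicate numbers did not pair the libraries (same-number correlations of deviations -0.0768, 0.0573 and -0.0469), and with the replicate block 5906 genes were higher and 5401 lower. Genes at least 2-fold higher numbered 5492 with no filter and 1749 at 1 CPM in 3 libraries, and genes at least 2-fold lower 1827 by library totals alone; fewer or more low genes were then tested, or the centre moved by -0.30.

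Counts of list members moved by over 1.5 times in many cases, and those not given here were of at most 3 members as reported. At 1 CPM in 3 libraries the numbers higher were 20 for the X-linked germline families, 8 for pluripotency, 25 for histones, 13 for basal epithelium, 5 for synapse, 2 for blood, 1 for endothelial and 1 for melanocyte markers, and the numbers lower 9 for protocadherins and 7 for ribosomal proteins. With no filter the numbers higher were 14 for interferons and JAK-STAT, 4 for mitochondrial transcripts, 16 for synapse and 5 for endothelial markers, and with DESeq2 14 for synapse. By library totals alone the numbers higher were 10 for NF-kB, 9 for endoplasmic reticulum, 15 for immediate early genes, 6 for lysosome and 0 for mitochondrial transcripts, and the numbers lower 39 for replication, 44 for G2 and mitosis and 40 for ribosomal proteins. By library totals alone, 5 replication, 3 G2 and mitosis, 2 G1, 1 Fanconi, 3 glycolysis and 0 ribosomal protein genes were higher, and 9 nucleic acid sensing, 8 NF-kB, 13 endoplasmic reticulum, 6 immediate early, 18 junction and 16 lysosome genes lower. With no filter 12 Hox, 10 replication, 4 G2 and mitosis and 3 ribosomal protein genes were higher, and with DESeq2 10 Hox genes. At 1 CPM in 3 libraries 2 Hox, 11 G2 and mitosis, 8 collagen and matrix and 15 ribosomal protein genes were higher and 3 NF-kB genes lower. Without control replicate 3 or decitabine replicate 1, 4 G2 and mitosis genes were higher, and without control replicate 3 or decitabine replicate 2, 3 ribosomal protein genes. Of 342 named genes 26 changed their call in some setting. By library totals alone 9 changed sign: Mbd1 -0.02, Cmpk1 -0.072, Chek1 -0.048, Nbn -0.046, Rbbp8 -0.055, Rpl13 -0.046, Rpl10a -0.09, Rpl8 -0.174 and mt-Atp8 -0.00. Of these only Rpl8 was called lower in edgeR's test with that scaling (adjusted p = 0.00194). The cause was not tested beyond these settings.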

Other observations

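Groups of genes outside the lists above were looked at by the start of their symbols, and were chosen after their values were seen, so their counts are descriptions. Of 27 tested serpin genes, which mostly encode protease inhibitors, 23 rose and 2 fell, with a median log2 fold change of 2.27, against 39.2% of all tested genes higher. Olfactory receptor genes (Olfr), normally expressed in the nose, had 13 tested members, of which 12 rose, with a median of 4.46; a gene silent in the controls could pass the filter by rising and in no other way. Of 27 potassium channel genes (Kcn) 18 rose and 4 fell. Of 53 Trim genes, many of them antiviral ubiquitin ligases, 33 rose and 11 fell. All 4 tested kallikrein genes (Klk) rose, with a median of 2.07. Control levels of these groups and of those below were not compared with those of all genes. Of all tested genes at 0.1 to 0.5 CPM in the controls 59.4% rose, and under 0.1 CPM 99.8%. The 39.2% is therefore no measure for groups that are low in the controls.

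Zinc finger genes with a SCAN domain (Zscan) rose in 12 of 15 tested cases, with a median of 1.21, whereas the large Zfp group was even, with 126 of 340 higher and 122 lower. Solute carriers (Slc) were even, with 97 of 241 higher and 93 lower. By annotated class, 56.8% of 407 long intergenic noncoding RNAs rose and 16.2% fell, against 38.2% and 38.9% of 13343 protein-coding genes. Of 64 unprocessed pseudogenes 60.9% rose, and 21.9% rose at least 16-fold, against 6.06% of protein-coding genes. Of the 39 unprocessed pseudogenes that rose 12 had 0 counts in every control, against 226 of 5099 protein-coding genes. Shares by class thus depend on control level and on the filter, and were not compared at equal level.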
